A study of Mus musculus with 8 samples.

Results

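Canine genes that hold values in the serum of mice without any canine cells are described here. The series sequenced RNA of serum exosomes, small membrane vesicles shed into blood, from NCr nu/nu mice, an athymic strain that lacks mature T cells and keeps its other blood, liver and bone cells. The members were chosen on deposited values: every identifier of the canine annotation at 10 or more in all 4 tumour-free libraries, with 3 very abundant canine genes left out by name. The rule gave 132 genes of the 20716 canine and 52016 total genes listed. The tumour-free libraries are 2 of serum pooled from all mice before injection (week 0) and 2 of serum pooled from mice that had received 10 µl of PBS into the tibia and were sampled at necropsy (week 8, PBS). The other 4 libraries are 2 each from week 8 serum pooled from mice given 100000 cells of OSCA-32 or of OSCA-40 in the same volume, each a single cell line of canine osteosarcoma, a bone cancer. The labels do not say that both libraries of a group came from separate pools, so the tests below measure the spread between libraries, which may be technical.

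As background, serum vesicles carry RNA of many host tissues, and in a xenografted mouse they can also carry RNA of the graft. Kallisto, the quantifier named in the submitters' processing notes, matches short words of each read to an index of transcripts and divides reads that match several transcripts among them. Where an index holds transcripts of both species, a read from a sequence conserved between mouse and dog can match either, so a canine identifier alone does not show that a read came from canine cells. No table used here gives a symbol for a canine identifier, so members are called by identifier and no function is stated for any of them.

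The deposited values are relative amounts: each library sums to between 977106 and 989183, and the depth behind the values is unknown. All 132 genes passed the filter used for testing (10 or more in at least 2 libraries), because the rule itself asks for more. Fold changes below are on the log2(value + 1) scale after the libraries had been scaled on the bulk of the 7872 tested genes, unless "as deposited" is written. The scaling matters, because 4 dominant canine genes (the 3 left out and ENSCAFG00000030616) took between 10.1% and 11.9% of each tumour-free library. They took 38.2% and 36.8% of the libraries labelled OSCA-32, and 61.1% and 63.1% of those labelled OSCA-40. These are sums over the 4 genes, and the same genes need not carry them in both lines. Among the tested canine genes outside the members and the 3 left out, the changes between OSCA-40 and OSCA-32 reached 17.2 by library totals. By library totals alone, the median tested gene differed by -0.55 between OSCA-32 and PBS, by -1.51 between OSCA-40 and PBS and by -0.95 between OSCA-40 and OSCA-32. As a comparison set, the 4682 mouse genes that also stood at 10 or more in all 4 tumour-free libraries were followed beside the members.

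The members spanned a wide range without any graft. Their mean over the tumour-free libraries ran from 10.25 to 3819, with a median of 69.6. By this mean, 54 genes stood under 50, 53 between 50 and 500, and 25 at 500 or more. The 10 genes with the highest mean held between 46% and 52.6% of the members' summed value in each of the 8 libraries. At the threshold, 8 genes had a lowest tumour-free value of exactly 10, with means of 10.25 to 14, and 9 canine genes just outside had a lowest value of 9, with means of 10 to 12.5. Apart from the 4 dominant genes, canine values without a graft lay almost wholly in these 132 genes, which held 95% to 95.5% of the remaining canine value in the tumour-free libraries. In the OSCA-32 libraries that share was 94% and 94.1%, and in the OSCA-40 libraries 89.9% and 91%.

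The 5 genes with the highest tumour-free means moved in different ways. ENSCAFG00000029369 stood at 3913 and 4377 at week 0, 3333 and 3653 with PBS, 11290 and 12564 for OSCA-32 and 10931 and 12237 for OSCA-40, so that the 4 tumour libraries lay above the 4 tumour-free ones and the values of both lines overlapped. ENSCAFG00000028657 was listed at 4237 and 4632 at week 0, 1210 and 1327 with PBS, 4800 and 4747 for OSCA-32 and 4206 and 4254 for OSCA-40. Here only the PBS libraries were low as deposited, and both lines lay near week 0. The scaled means of this gene were 4395 at week 0, 1212 with PBS, 6824 for OSCA-32 and 12685 for OSCA-40. ENSCAFG00000031457 was nearly level without a graft, at 2774, 2735, 2756 and 2792, and was listed at 1881 and 1963 for OSCA-32 and 1348 and 1154 for OSCA-40. ENSCAFG00000031340 stood at 2418 and 2453 at week 0, 1970 and 1756 with PBS, 1430 and 1329 for OSCA-32 and 678 and 692 for OSCA-40. For both genes no group overlapped the next in the order PBS, OSCA-32, OSCA-40, as deposited. Of all tested genes, 64% had both OSCA-32 libraries below both PBS libraries, and 76% both OSCA-40 libraries below both OSCA-32 libraries. After scaling, the means of ENSCAFG00000031457 were 2650, 2747 and 3745 in that order. Those of ENSCAFG00000031340 were 1781, 1973 and 2054. ENSCAFG00000030201 was highest with PBS, at 2507 and 2412, against 1571 and 1649 at week 0, 1537 and 1325 for OSCA-32 and 778 and 776 for OSCA-40.

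**Figure D1:**
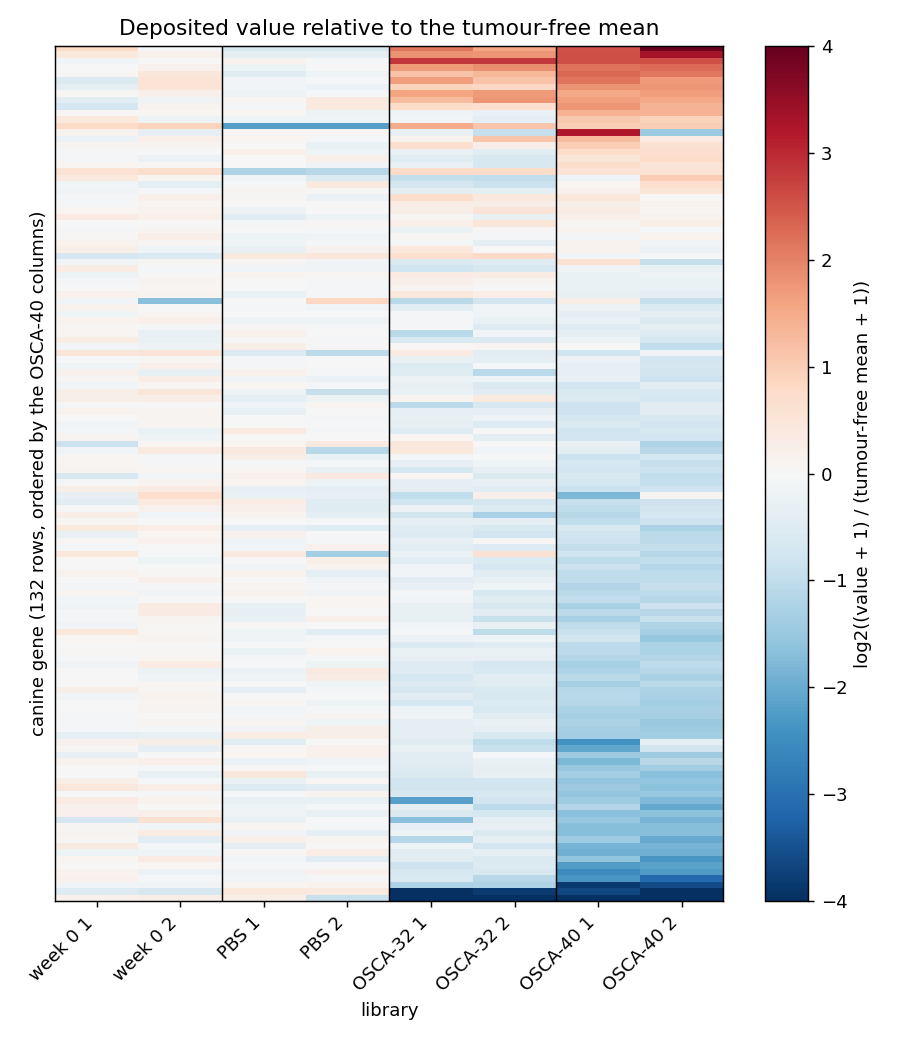
Each row is 1 of the 132 canine genes and each column 1 library; colour gives log2 of the deposited value + 1 over the tumour-free mean + 1, with values beyond 4 or -4 shown in the end colours, and rows are ordered by the OSCA-40 columns. In the OSCA-40 columns 85 genes lie below and 20 above all 4 tumour-free libraries.

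As deposited, most members were lower with a graft, but less so than mouse genes of the same threshold. With OSCA-32, 60 of the 132 genes had both libraries below all 4 tumour-free libraries and 21 had both above, where 49.9% and 1.69% of all tested genes did so. With OSCA-40, 85 lay below and 20 above, against 86.5% and 1.26% of all tested genes. The median ratio of the OSCA-32 mean to the tumour-free mean was 0.777 for the members and 0.68 for the mouse genes, and that of OSCA-40 was 0.564 and 0.324. The tumour-free values chose both sets, so these figures describe them and are no test.

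In 51 members all 4 tumour libraries lay below all 4 tumour-free libraries, as in 49% of all tested genes. A smaller part was higher with a graft even as deposited. In 13 genes all 4 tumour libraries exceeded all 4 tumour-free libraries, which 0.965% of all tested genes did. Of the 82 other tested canine genes 53 did so. However, 60 of the 82 were at 10 or more in fewer than 2 tumour-free libraries and passed the filter only with tumour libraries. The number 53 is thus partly set by the filter. For the 13 members the ratio to the tumour-free mean ran from 1.2 to 7.1 with OSCA-32 and from 1.14 to 10.7 with OSCA-40. ENSCAFG00000029071 had the highest OSCA-32 ratio: it was listed at 185, 204, 220 and 193 without a graft, at 1419 and 1429 for OSCA-32 and at 1214 and 1206 for OSCA-40. The libraries of each group lay close together, and the tumour groups stood far above the rest. ENSCAFG00000028748, chosen for mention after its values were seen, stood at 1903, 2510, 1314 and 1613 without a graft, at 4024 and 4589 for OSCA-32 and at 8994 and 7850 for OSCA-40, a graded order. Another 3 of the 13, also picked for mention after their values were seen, show the range. ENSCAFG00000029384 stood at 1350, 1497, 1157 and 1348 without a graft, 4382 and 4846 for OSCA-32 and 6089 and 6476 for OSCA-40, again graded. ENSCAFG00000032283, a low gene, was listed at 11, 21, 13 and 12, then 27 and 26, then 52 and 51. ENSCAFG00000032588 barely cleared the tumour-free values of 1064, 1178, 1079 and 1087, at 1341 and 1308 for OSCA-32 and 1294 and 1218 for OSCA-40. By the size of the ratio to the tumour-free mean, 9 members were above 2 and 5 below 0.5 for OSCA-32, and the other 118 lay between. For OSCA-40, 13 were above 2, 54 below 0.5 and 65 between, while only 4 of the 4682 mouse genes were above 2 and 4322 below 0.5. A value of 10 or more, which every member had without a graft, was kept by 122 and 121 members in the OSCA-32 libraries and by 103 in each OSCA-40 library. At the other end, 26 members stayed within a 2-fold range over all 8 libraries as deposited.

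Summed over the members, the share of the library total was 5.03% ± 0.217 (SD, n = 2) at week 0 and 4.38% ± 0.0202 (SD, n = 2) with PBS. It was 6.12% ± 0.00903 (SD, n = 2) for OSCA-32 and 6.78% ± 0.261 (SD, n = 2) for OSCA-40. With the 4 dominant genes taken out of the total, it was 5.68% ± 0.289 (SD, n = 2), 4.89% ± 0.0408 (SD, n = 2), 9.78% ± 0.147 (SD, n = 2) and 17.9% ± 1.35 (SD, n = 2). The 4 groups did not overlap in either form. The sum is weighted to the most abundant members and does not describe the typical one. As deposited, the median member stood at 72 and 70.5 at week 0 and at 68.5 and 70.5 with PBS. It stood at 59.5 and 51 for OSCA-32 and at 52 and 46 for OSCA-40. A larger share of the members and a smaller amount of all other RNA cannot be told apart in relative values.

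The comparison of OSCA-40 with OSCA-32 asks whether these genes stand at different levels in mice bearing different tumour lines. It is the comparison whose libraries did not choose the members. The spread behind its p-values was estimated over all 8 libraries, however, and so partly from the tumour-free libraries that did. Relative to the bulk of genes, 42 of the 132 members were higher with OSCA-40 and 1 was lower at an adjusted p of 0.05 (limma, Benjamini-Hochberg over all tested genes), and 89 were not called. Over all tested genes 1.58% were called higher and 0.965% lower, and of the mouse genes of the same threshold 52 were higher and 62 lower. Among the 82 other tested canine genes 23 were called higher (28%, beside 31.8% of the members) and 0 lower by limma (0 also at an unadjusted p of 0.05), with a median of 2.43, under the same limit of the filter. The median fold change was 0.54 for the members, with 113 above and 18 below 0, and 0.01 for those mouse genes. As deposited, 17 members had both OSCA-40 libraries above both OSCA-32 libraries and 80 had both below, where 1.54% and 76% of all tested genes did. Of the 42 called higher, 15 lay above in this sense, 11 overlapped and 16 lay below. By library totals alone the split turned, with 14 members called higher and 57 lower, where 0.699% and 58.2% of all tested genes were, while the median was -0.50 for the members and -0.98 for the mouse genes. The number called higher was 26 or 21 without the first or second OSCA-32 library, 18 with only these 4 libraries in the fit and 15 when the variance was not allowed to follow the level.

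**Figure D2:**
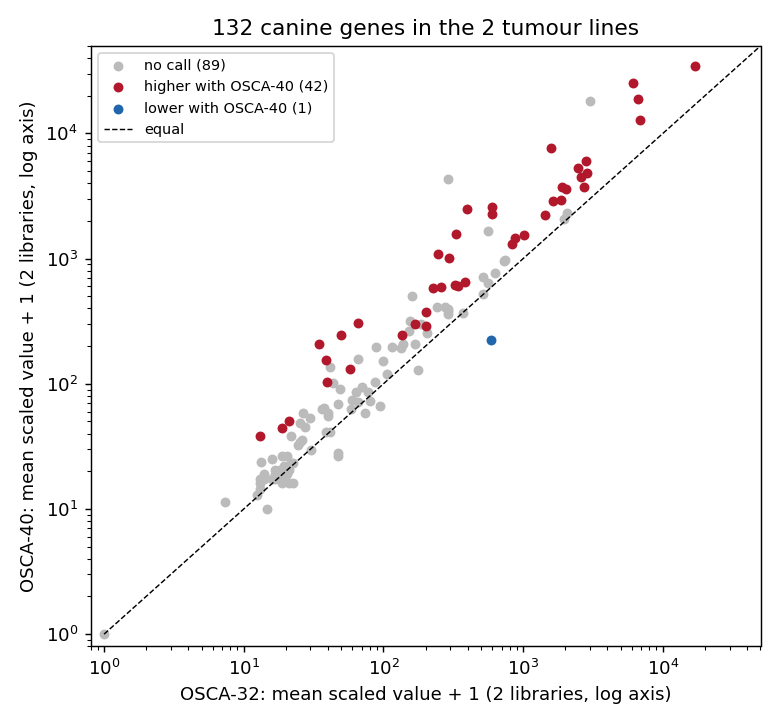
Each point is 1 of the 132 canine genes; the axes give the mean scaled value + 1 of the 2 OSCA-32 and the 2 OSCA-40 libraries on log axes, the dashed line marks equal values, and colour gives the limma call. The 42 genes called higher lie above the line over most of the range, and the 1 called lower stands apart below it.

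ENSCAFG00000031674 showed the largest rise that passed. It was listed at 332 and 334 at week 0, 335 and 275 with PBS, 284 and 268 with OSCA-32, and 831 in both OSCA-40 libraries. OSCA-40 alone stood apart, and the other 3 groups lay within 1 narrow band as deposited. The log2 fold change of OSCA-40 over OSCA-32 was 2.66 ± 0.10 (SE; adjusted p = 0.000121, limma), and it passed under all 19 alternatives, by library totals too, at 1.58. ENSCAFG00000029164 stood at 62, 51, 43 and 32 without a graft, 24 and 23 for OSCA-32 and 41 and 95 for OSCA-40. It rose by 2.44 ± 0.38 (SE; adjusted p = 0.0237, limma), although as deposited the lower OSCA-40 library lay among the tumour-free values. This call was lost without either library of week 0, PBS or OSCA-32 (adjusted p over the 18 alternatives 0.00755 to 0.145, limma).

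ENSCAFG00000031012 was the gene that fell. It was listed at 898 and 880 at week 0, 1008 and 1074 with PBS, 408 and 419 for OSCA-32 and 67 and 80 for OSCA-40. The tumour-free libraries were high, OSCA-32 intermediate and OSCA-40 low, with no overlap between the lines. The log2 fold change of OSCA-40 over OSCA-32 was -1.42 ± 0.10 (SE; adjusted p = 0.00106, limma), and it passed under all 19 alternatives. ENSCAFG00000032200 had the next smallest p among lower members that did not overlap, at 75 and 77 at week 0, 90 and 105 with PBS, 63 and 68 with OSCA-32 and 22 in both OSCA-40 libraries. As deposited its OSCA-40 values were the lowest, but its scaled change of -0.50 ± 0.11 (SE) did not pass (adjusted p = 0.0682, limma). It passed under 4 of 19 alternatives, among them library totals alone.

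For several abundant members the direction between the lines depends on the scaling. ENSCAFG00000029369 rose by 1.03 ± 0.09 (SE; adjusted p = 0.00313, limma) relative to the bulk, but stood at -0.05 by library totals. ENSCAFG00000028657, ENSCAFG00000029071, ENSCAFG00000028898 and ENSCAFG00000031457 were likewise called higher relative to the bulk, at 0.89, 0.83, 0.77 and 0.44, and stood at -0.18, -0.24, -0.30 and -0.63 by library totals. By library totals ENSCAFG00000029071 and ENSCAFG00000031457 were called lower (adjusted p = 0.0391 and 0.000983, limma). ENSCAFG00000028657 and ENSCAFG00000028898 did not pass there (adjusted p = 0.0534 and 0.0589, limma). Without a variance trend the scaled calls of ENSCAFG00000029369, ENSCAFG00000028657 and ENSCAFG00000029071 were lost (adjusted p = 0.0579, 0.0616 and 0.0886, limma). Those of ENSCAFG00000028898 and ENSCAFG00000031457 were lost too (adjusted p = 0.156 and 0.25, limma). The call of ENSCAFG00000028898 (adjusted p = 0.0275, limma) was lost without any single library of week 0, PBS or OSCA-40, with adjusted p from 0.0639 to 0.0911. That of ENSCAFG00000031457 (adjusted p = 0.0186, limma) was lost without the first week 0 library (adjusted p = 0.058), the second PBS library (0.0509) or either OSCA-32 library (0.0864 and 0.0816). ENSCAFG00000029657 was higher on both scales: 1114 and 1081 for OSCA-32 and 1908 and 3202 for OSCA-40, a log2 fold change of 2.24 ± 0.23 (SE; adjusted p = 0.00496, limma), and 1.16 by library totals. With only the groups compared in the fit, its scaled change did not pass (adjusted p = 0.058, limma). Without the second OSCA-32 library its adjusted p was 0.0593. ENSCAFG00000031340, at 0.06 ± 0.08 (SE), and ENSCAFG00000030201, at 0.19 ± 0.09 (SE), did not pass relative to the bulk, although both were lower with OSCA-40 as deposited.

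The share called higher climbed with the level without a graft, in the members and in the mouse genes alike. In the same comparison 7 of the 54 members with a tumour-free mean under 50 were called higher, 18 of the 53 between 50 and 500, and 17 of the 25 at 500 or more, where the 1 lower member also lay. Their median fold changes were 0.37, 0.75 and 0.77. In the same classes of mouse genes the medians were 0.01, 0.01 and 0.04, with 17 of 3696, 21 of 868 and 14 of 118 called higher and 23, 31 and 8 lower. The classes are cut on the tumour-free values that chose the members, so these counts are a description. The fit lets the variance follow the level, and the part of this in the counts was not tested.

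**Figure D3:**
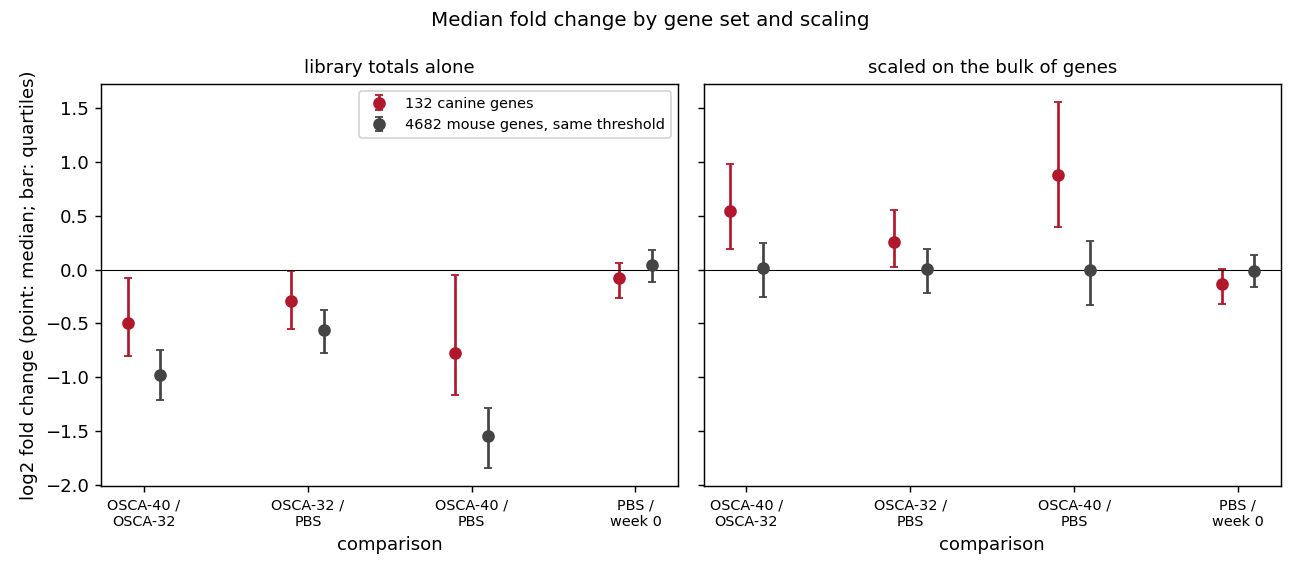
Points give the median log2 fold change and bars the quartiles over genes, for the 132 canine genes and the 4682 mouse genes of the same threshold, in 4 comparisons, by library totals alone (left) and scaled on the bulk of genes (right). Between OSCA-40 and OSCA-32 the members' median is -0.50 on the left and 0.54 on the right, and on both sides it lies above that of the mouse genes.

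Against PBS, the members are described only: the PBS libraries helped to choose them, so the counts of limma calls below are no test of the members and nothing is read from them. In OSCA-32 against PBS, 21 members were called higher and 2 lower by limma, where 0.889% and 0.191% of all tested genes were. As deposited, 25 members had both OSCA-32 libraries above both PBS libraries and 70 had both below, where 2.67% and 64% of all tested genes did, and 19 of the 21 were among the 25. The median scaled fold change was 0.25. Leaving out 1 PBS library left 12 (the first) or 11 (the second) called higher, and leaving out OSCA-32 replicate 1 left 12. The number called lower was 1 without any single library of week 0, PBS or OSCA-32, and by library totals alone 14 were higher and 21 lower, beside 0.838% and 16.3% of all tested genes. In OSCA-40 against PBS, 62 were called higher and 6 lower, where 4.45% and 2.39% of all tested genes were, with a median of 0.87. As deposited, 24 members lay above PBS in both libraries and 91 below, where 1.45% and 91.3% of all tested genes did. Of the 62, 24 lay above, 10 overlapped and 28 lay below. By library totals alone 20 were higher and 79 lower, beside 1.17% and 84.3% of all tested genes. Without any single library of week 0 or PBS, 2 were lower. Each comparison uses the same PBS libraries.

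ENSCAFG00000028987 had the largest fold change of OSCA-40 over PBS, 5.52 ± 0.48 (SE), and ENSCAFG00000029657 the next, 4.99 ± 0.23 (SE). The former was listed at 978 and 550 at week 0, 370 and 362 with PBS, 2507 and 1704 for OSCA-32 and 3309 and 8747 for OSCA-40. Its tumour libraries all exceeded the tumour-free ones, but the OSCA-40 libraries differed widely, and the change of OSCA-40 over OSCA-32, 2.45 ± 0.48 (SE), did not pass (adjusted p = 0.0517, limma). Without the first OSCA-40 library it passed (adjusted p = 0.0215, limma). ENSCAFG00000029657 stood at 426, 354, 241 and 245 without a graft, so that its libraries rank tumour-free, OSCA-32, OSCA-40 without overlap. For OSCA-32 over PBS the largest values were 4.07 ± 0.13 (SE) for ENSCAFG00000028898 and 3.36 ± 0.08 (SE) for ENSCAFG00000029071.

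**Figure D4:**
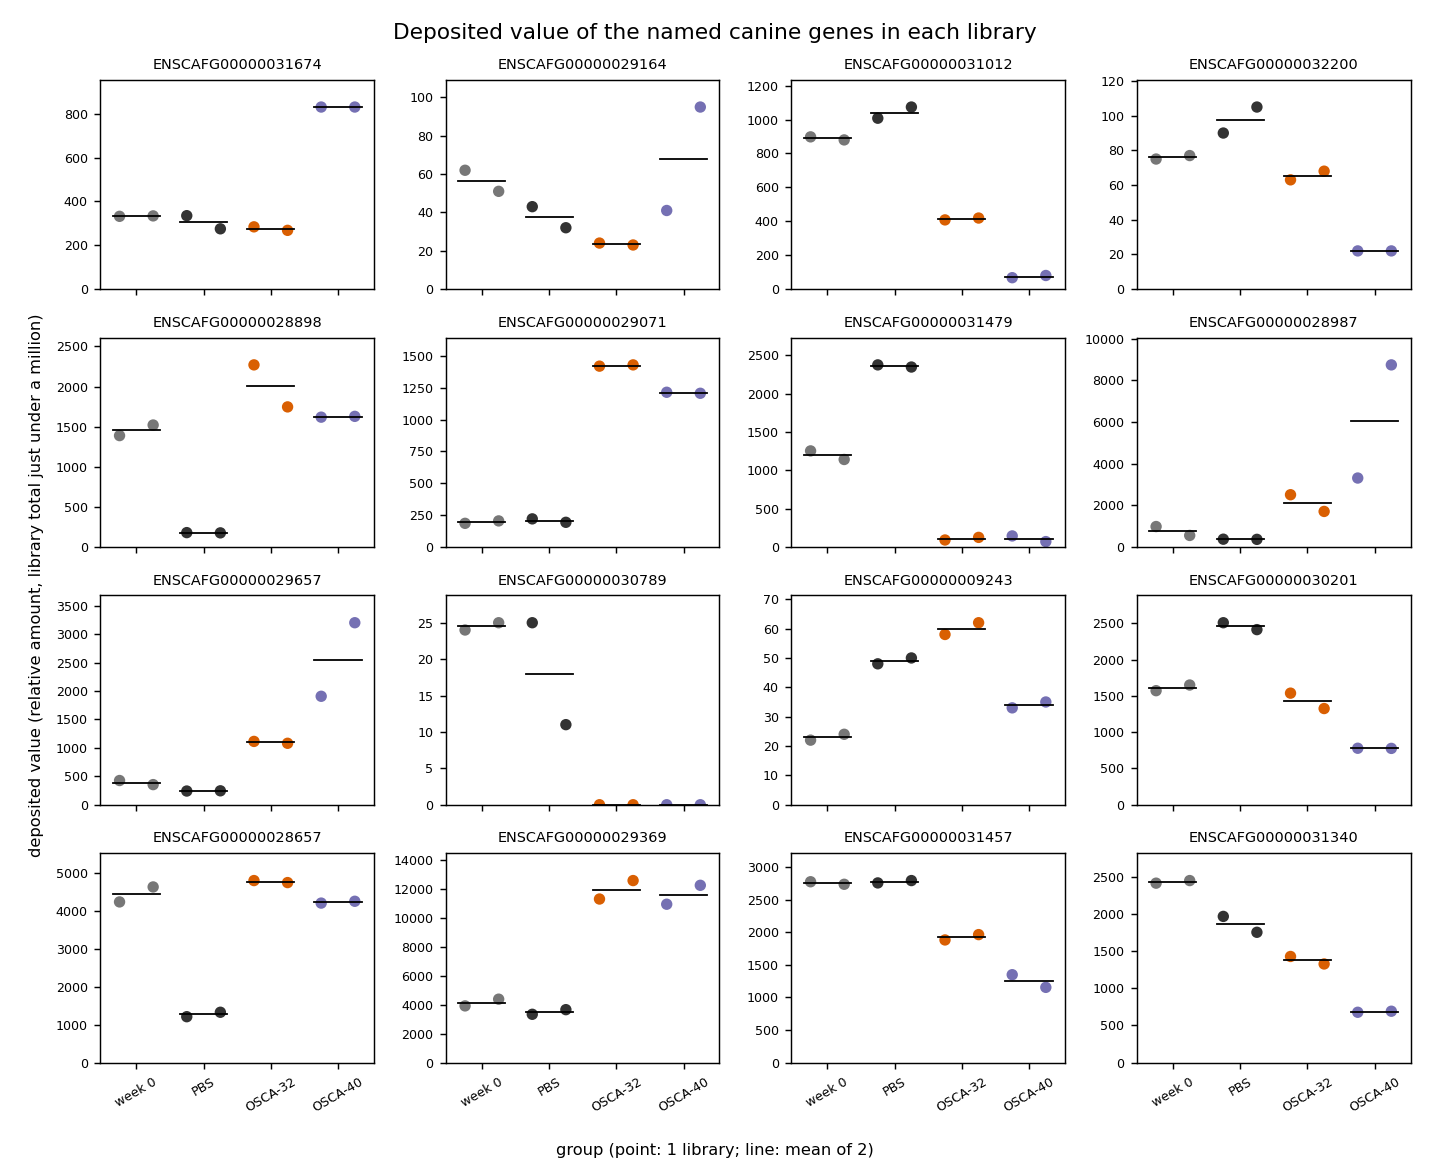
Deposited values of the 16 members selected by the naming rule in each of the 8 libraries (points) with the mean of each group of 2 (lines), every panel on its own linear axis from 0. ENSCAFG00000031479 is at 1140 or more without a graft and at 143 or less with either line, and ENSCAFG00000028898 is low with PBS only.

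Only a few members were far lower with both lines. ENSCAFG00000031479 stood at 1252 and 1140 at week 0, 2374 and 2346 with PBS, 90 and 124 for OSCA-32 and 143 and 69 for OSCA-40. As deposited, PBS exceeded OSCA-32 by 22.1-fold and OSCA-40 by 22.3-fold, and both lines overlapped. The scaled fold changes against PBS were -3.89 ± 0.29 and -2.92 ± 0.29 (SE), and the 0.98 ± 0.29 (SE) between the lines did not pass (adjusted p = 0.16, limma), though without the second OSCA-40 library it was 1.47 and did (adjusted p = 0.0194, limma). ENSCAFG00000030789 was listed at 24, 25, 25 and 11 without a graft and at 0 in all 4 tumour libraries. It was the 1 member listed at 0 in any library, and no fold is given for it because the values keep no depth. ENSCAFG00000031012, described above, had changes against PBS of -0.75 ± 0.10 with OSCA-32 and -2.17 ± 0.10 (SE) with OSCA-40.

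PBS at week 8 is set beside week 0 as a description as well, since both groups chose the members. Limma called 1 member higher and 3 lower, where 0.0762% and 0.114% of all tested genes were, which is no test of the members, and the median fold change was -0.14. ENSCAFG00000028898 was listed at 1388 and 1520 at week 0 and at 178 and 175 with PBS, a log2 fold change of -3.09 ± 0.13 (SE). With a graft it stood at 2270 and 1746 (OSCA-32) and 1618 and 1628 (OSCA-40), nearer to week 0 than to PBS. Its OSCA-32 value was 4.07 over PBS and 0.98 over week 0. ENSCAFG00000028657, given above, differed by -1.86 ± 0.07 (SE) in the same direction. ENSCAFG00000009243 was higher with PBS, at 48 and 50 against 22 and 24 at week 0, and stood at 58 and 62 for OSCA-32 and 33 and 35 for OSCA-40. Its log2 fold change over week 0 was 1.01 ± 0.11 (SE). It is the 1 member counted as higher, and without any single library the count was 0. ENSCAFG00000030201 stood at 0.56 ± 0.09 (SE). Against week 0 in place of PBS, 14 members were called higher and 1 lower for OSCA-32, beside 0.699% and 0.203% of all tested genes. For OSCA-40 the counts were 61 and 5, beside 4.17% and 1.98%. Week 0 chose the members too, so these counts are no test either.

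The libraries of a group agreed for most members. On the scaled values they differed by more than 2-fold for 3 members in each of the week 0, PBS and OSCA-32 groups and for 8 in OSCA-40, where 3 differed by more than 4-fold. ENSCAFG00000032610, chosen for mention after its values were seen, was the widest: 334, 240, 317 and 324 without a graft, 245 and 159 for OSCA-32, and 2824 and 109 for OSCA-40. One OSCA-40 library was far above and the other below all tumour-free values, and the gene was not called between the lines. Without the 3 genes the counts in the comparison of the lines were 42 and 1, as with them.

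Mouse markers of cells that feed serum RNA, and of vesicles, are given beside these results. The summed scaled value of 6 platelet genes (Pf4, Ppbp, Tmsb4x, Itga2b, Gp1bb and Gp9) was 88.4 to 126 without a graft, 195 and 243 for OSCA-32 and 539 and 596 for OSCA-40. Of 6 erythroid genes the sum was 287 to 463 without a graft, 362 and 379 for OSCA-32 and 731 and 833 for OSCA-40. The sum of 6 hepatocyte genes ran from 29.8 to 45.6, then 59.2 and 73.9, then 96.8 and 132. Of 6 vesicle components (Cd9, Cd63, Cd81, Tsg101, Pdcd6ip and Flot1) it ran from 224 to 281, then 197 and 203, then 116 and 123. The scaling divided the OSCA-32 libraries by 0.69 and 0.71, the OSCA-40 libraries by 0.34 and 0.33, and the tumour-free libraries by 1 to 1.05. As deposited, the sums of the tumour libraries therefore stood lower against the tumour-free ones than given here. With the scaling undone, the erythroid sums of both lines lay below all tumour-free ones, and the hepatocyte sums overlapped them. Only the platelet sums still lay above all tumour-free ones. Between the lines limma called 2 of the 4 tested platelet genes, 1 of 5 erythroid, 0 of 2 hepatocyte and 1 of 4 vesicle genes (2, 2, 0 and 1 at an unadjusted p of 0.05). For OSCA-32 against PBS limma called 1 platelet gene and 0 of the other lists (3 platelet genes and 1 gene of each other list at an unadjusted p of 0.05). No gene of these lists was at 0 in all libraries, and their part in the members' values was not tested.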

How the data were processed

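The authors deposited 1 table of whole numbers, with mouse and canine genes as rows and libraries as columns. Per the submitters' processing notes, FastQC 0.11.5, Trimmomatic 0.33.0 and kallisto 0.43.0 were used with GRCm38.p5 and CanFam3.1; which index, annotation release and filters were used is not stated in the labels. Per the labels' protocols, exosomes were enriched with ExoQuick and libraries made with a stranded SMARTer pico-input kit. The table is called counts, but the deposited values are treated as a score: the library totals are nearly equal (977106 to 989183), as relative amounts would be. Whether they are per length is not known, and they keep no depth, so no interval or floor is given.

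The 7872 genes (7655 mouse, 217 canine) at 10 or more in at least 2 libraries were tested with limma 3.58.1 (run under R 4.3.3) on log2 of the scaled value + 1, 8 libraries in 1 fit with a mean per group and a variance trend, Benjamini-Hochberg over all genes. Libraries were scaled on these genes against week 0 replicate 1, by the trimmed mean of their log ratios (30% of ratios and 5% of levels trimmed at each end). The procedure was tested on simulated data in which changes were balanced between higher and lower. The rise of the dominant genes was not built in, so that test cannot speak to the effect of the scaling on the split of calls. Named members are the 2 called members per direction and comparison with the largest fold change and no overlap, otherwise the smallest p, and the 5 highest without a graft. The members, lists and tests were chosen with earlier results of these data known. Alternatives covered scaling, pseudocount, filter, block, variance trend, membership threshold, reference group and leaving out each library.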

Additional observations from a re-analysis of the deposited data

Results flagged for a closer look

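For 9 of the named members the effect of OSCA-40 differed from that of OSCA-32 by limma's test of the difference between the lines (log2 fold change of OSCA-40 over OSCA-32, adjusted over all tested genes). These were ENSCAFG00000031674 at 2.66, ENSCAFG00000029164 at 2.44, ENSCAFG00000029657 at 2.24, ENSCAFG00000029369 at 1.03, ENSCAFG00000028657 at 0.89, ENSCAFG00000029071 at 0.83, ENSCAFG00000028898 at 0.77, ENSCAFG00000031457 at 0.44 and ENSCAFG00000031012 at -1.42. By library totals alone the direction of ENSCAFG00000029369, ENSCAFG00000028657, ENSCAFG00000029071, ENSCAFG00000028898 and ENSCAFG00000031457 turned, at -0.05, -0.18, -0.24, -0.30 and -0.63. Of these, ENSCAFG00000029071 and ENSCAFG00000031457 were called lower by library totals (adjusted p = 0.0391 and 0.000983, limma). Without a variance trend the calls of ENSCAFG00000029164, ENSCAFG00000029369 and ENSCAFG00000028657 were lost (adjusted p = 0.0736, 0.0579 and 0.0616, limma). Those of ENSCAFG00000029071, ENSCAFG00000028898 and ENSCAFG00000031457 were lost too (adjusted p = 0.0886, 0.156 and 0.25, limma). With only the groups compared, ENSCAFG00000029164, ENSCAFG00000028898, ENSCAFG00000029657 and ENSCAFG00000031457 did not pass (adjusted p = 0.145, 0.178, 0.058 and 0.164, limma). No group has the 4 libraries that a search for single outlying libraries needs.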

How the results depend on the processing

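The split between higher and lower calls rests on the scaling. Library totals alone gave 14 members higher and 57 lower between the lines (42 and 1 in the fit reported), 21 lower for OSCA-32 against PBS (2) and 20 higher and 79 lower for OSCA-40 against PBS (62 and 6). Of all tested genes, 0.699% were then called higher and 58.2% lower between the lines. Against PBS, 16.3% were lower for OSCA-32, and 1.17% higher and 84.3% lower for OSCA-40. Between the lines, the number lower was 2 with median-of-ratios scaling, 3 with a mean of at least 50 and 5 with scaling on every gene above 0, an alternative chosen after seeing the data. The number higher was 18 with only the groups compared and 15 without a variance trend. For OSCA-32 against PBS, 12 were higher without a filter, 8 without a variance trend, and 1 was lower against week 0. For OSCA-40 against PBS, 2 were lower with only the groups compared and 3 without a variance trend. For PBS against week 0, where 1 was higher and 3 lower, limma called 0 higher without a filter, with only the groups compared, with the replicate block and without a variance trend (5, 7, 5 and 3 at an unadjusted p under 0.05), and 5 lower with a mean of at least 50. Leaving out each library gave 21 to 36 higher and 1 lower between the lines, 11 to 20 and 1 to 3 for OSCA-32, 49 to 62 and 2 to 5 for OSCA-40, and 0 (4 to 6 unadjusted) and 2 to 3 for PBS against week 0; a lone library is assumed to vary like the other groups. Among 555 alternative values of single named members, 477 kept their side of the threshold, 55 lost it, 10 gained it and 13 changed sign, all between the lines. Library totals alone turned ENSCAFG00000028898 to -0.30, ENSCAFG00000029071 to -0.24, ENSCAFG00000031479 to -0.10, ENSCAFG00000009243 to -0.81, ENSCAFG00000030201 to -0.88, ENSCAFG00000028657 to -0.18, ENSCAFG00000029369 to -0.0503, ENSCAFG00000031457 to -0.63 and ENSCAFG00000031340 to -1.02. ENSCAFG00000031340 also stood at -0.0169 with median-of-ratios scaling, -0.0118 without the second OSCA-32 library (leaving out each library gave -0.0118 to 0.131) and -0.18 with scaling on every gene above 0, which put ENSCAFG00000030201 at -0.0503. The cause of these changes was not tested. The replicate numbers do not pair the libraries (correlations of deviations -0.0574 to 0.00593), and with the replicate block 39 and 1, 19 and 2, 61 and 5, and 0 and 2 were called.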
